A study of Mus musculus with 6 samples.

Results

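The 8 genes described here encode the core of the synaptic vesicle release machinery, namely the Munc13 priming factors (Unc13a, Unc13b and Unc13c), the active zone proteins RIM1 and RIM2 (Rims1 and Rims2) and the neuronal SNARE proteins syntaxin-1A, SNAP-25 and synaptobrevin-2 (Stx1a, Snap25 and Vamp2). They were chosen by symbol among 52550 gene identifiers, and all 8 were measured and passed the filter on low counts. The set was drawn up around Unc13c because that gene had differed between TBI and sham in these same libraries, so the values of the 8 genes in this contrast are given as a description and without a test. Hippocampal RNA came from male C57BL / 6 mice (C57B6/J in the study's methods) aged 8 to 10 weeks, with 3 mice in the sham group and 3 in the TBI group, and 1 library per mouse (Sham1 to Sham3 and TBI1 to TBI3). Traumatic brain injury (TBI) was a moderate controlled cortical impact through an opening over the right parietal bone. Sham mice had anaesthesia and craniotomy without the impact, and tissue was taken 24 h after surgery in both groups. The study describes exposing the hippocampus on both sides and examining it whole, and the labels name no side.

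Synaptic vesicles fuse with the presynaptic membrane when synaptobrevin on the vesicle zippers with syntaxin and SNAP-25 on the membrane. Munc13 proteins open syntaxin so that the SNARE complex can assemble, a step called priming, and RIM proteins hold Munc13, vesicles and calcium channels together at the active zone. Munc13-1, the product of Unc13a, serves most excitatory synapses of the forebrain, Munc13-2 (Unc13b) serves a subset of them, and Munc13-3 (Unc13c) is known chiefly from granule cells of the cerebellum.

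Each library summed to between 31630936 and 41771872 counts. CPM below means counts scaled to the library total with TMM normalization factors. Of 17 lists of region and cell type markers, several showed libraries that stood apart. In TBI1 the summed level of 8 striatal markers was 3808 CPM, against 133 to 142 CPM in sham, and all 8 were above every sham library. In TBI3 the 7 markers of cerebellar granule cells summed to 1810 CPM, against 76.1 to 188 CPM in sham, and the 4 Purkinje cell markers to 1033 CPM, against 16.2 to 32.5 CPM. Sham2 had 4055 CPM of the astrocyte gene Gfap, against 623 and 632 CPM in the other sham libraries, and the astrocyte markers Aqp4 (401 CPM against 211 and 257 CPM) and Aldh1l1 (84.9 CPM against 67.5 and 63.8 CPM) were also highest of the sham libraries there, while Gja1 (99.2 CPM against 329 and 326 CPM) and Slc1a3 (599 CPM against 802 and 691 CPM) were lowest. It also had the lowest oligodendrocyte markers, 2695 CPM against 7855 to 9438 CPM. Choroid plexus markers summed to 49.2 CPM in Sham2, 236 CPM in TBI1 and 250.3 CPM in TBI3, against 2011 to 2337 CPM in the other libraries. Markers of the hippocampal fields were detected in all libraries, but some were low in TBI1. Its 4 markers of the dentate gyrus summed to 23.5 CPM, against 152 to 248 CPM in sham. Among them C1ql2 had 2.45 CPM, against 56.7 to 86.0 CPM in sham. The CA1 marker Fibcd1 had 13.1 CPM in TBI1, against 99.9 to 142 CPM. Of the dentate gyrus, CA1 and CA3 markers only Wfs1, with 276 CPM, was above every sham library in TBI1. TBI2 stayed within or close to the sham range in these lists, with 151 CPM for striatum and 133 CPM for cerebellar granule cells, but had the most blood markers, 596 CPM against at most 414 CPM in sham. Log2 fold changes are therefore also given without TBI1 and TBI3, or without Sham2 as well, where that moved them by over 1.5 times.

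The 3 Unc13 paralogues lie on different chromosomes of GRCm38. Unc13a (ENSMUSG00000034799.16) spans 71624417 to 71671757 on the minus strand of chromosome 8, Unc13b (ENSMUSG00000028456.18) spans 43058953 to 43264871 on the plus strand of chromosome 4, and Unc13c (ENSMUSG00000062151.13) spans 73479422 to 73968966 on the minus strand of chromosome 9. The RefSeq sequences around their annotated starts are shown because these regions differ in CpG dinucleotides, printed in capitals. They are from GRCm38.p6, with 250 bases before and 50 after the start, 5′ to 3′ on the strand of the gene. The RefSeq start of Unc13c lies upstream of the gene span given above, so its window is wholly outside that span. The windows are at chr8:71671708-71672007, chr4:43058703-43059002 and chr9:73968988-73969287.
Unc13a: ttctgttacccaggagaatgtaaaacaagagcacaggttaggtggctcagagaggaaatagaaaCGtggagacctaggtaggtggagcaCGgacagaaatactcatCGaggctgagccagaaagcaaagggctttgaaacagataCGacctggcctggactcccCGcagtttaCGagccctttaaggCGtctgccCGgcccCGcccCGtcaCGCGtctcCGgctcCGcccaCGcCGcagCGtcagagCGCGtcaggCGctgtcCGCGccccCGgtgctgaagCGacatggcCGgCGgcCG
Unc13b: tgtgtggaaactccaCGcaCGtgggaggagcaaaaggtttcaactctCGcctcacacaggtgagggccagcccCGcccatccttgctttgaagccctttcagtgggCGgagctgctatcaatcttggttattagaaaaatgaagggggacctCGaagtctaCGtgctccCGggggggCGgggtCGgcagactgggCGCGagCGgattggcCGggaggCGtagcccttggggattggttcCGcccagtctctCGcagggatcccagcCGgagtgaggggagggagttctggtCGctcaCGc
Unc13c: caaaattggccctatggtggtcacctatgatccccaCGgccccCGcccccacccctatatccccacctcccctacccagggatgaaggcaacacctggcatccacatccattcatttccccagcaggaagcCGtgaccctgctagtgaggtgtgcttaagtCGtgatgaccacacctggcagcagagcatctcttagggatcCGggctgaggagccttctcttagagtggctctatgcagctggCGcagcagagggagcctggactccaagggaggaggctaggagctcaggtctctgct
The windows held 27 CpG dinucleotides in Unc13a, 20 in Unc13b and 6 in Unc13c, where the median over 27025 genes with such a window was 7. Of all genes 15.4% had as many as Unc13a or more, 26.8% as many as Unc13b or more and 56.4% as many as Unc13c or more. The GC contents were close, at 61.3%, 62.0% and 59.3%. Methylation was not measured in this study, and a link of CpG content to the levels of these genes was not tested.

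Unc13c was the member with the widest difference between the groups. Its level was 39.9 CPM in Sham1, 55.2 CPM in Sham2 and 88.4 CPM in Sham3, and 263.7 CPM in TBI1, 129 CPM in TBI2 and 192 CPM in TBI3. The groups did not overlap, and the lowest TBI library, TBI2, was 1.46 times the highest sham library. Sham averaged 61.2 ± 24.8 CPM and TBI 195 ± 67.3 CPM (SD, n = 3 in each group), a log2 fold change of 1.67 in the edgeR fit, with a standard error of 0.367. The spread within each group was wide, since the highest sham library was 2.21 times the lowest and the highest TBI library 2.04 times the lowest. With 1 library left out the log2 fold change lay between 1.39, without TBI1, and 2.03, without Sham3. With TBI1 and TBI3 both left out, so that TBI2 stood alone against the sham libraries, it was 1.08, and with Sham2 left out as well it was 1.01. In bulk tissue, more cells that express the gene and more RNA per cell cannot be told apart.

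Unc13a, the main Munc13 gene of forebrain synapses, had 357, 243 and 296 CPM in Sham1 to Sham3 and 314, 244 and 220 CPM in TBI1 to TBI3. The groups overlapped, with a log2 fold change of -0.20 (standard error 0.194). It was -0.047 without Sham1, -0.096 without TBI3, -0.33 without Sham2 and -0.36 without TBI1, and -0.42 with Sham2, TBI1 and TBI3 all left out. Of its exonic bases 3.92% are also exonic in Colgalt1 on the opposite strand, and since the strandedness of the libraries is not given in the sources used here, reads there could belong to either gene. The other 7 members shared no exonic base with another annotated gene. Unc13b had 37.7, 51.1 and 35.0 CPM in Sham1 to Sham3 and 19.4, 38.1 and 26.1 CPM in TBI1 to TBI3. TBI2 lay among the sham libraries, and the other TBI libraries lay below them. The log2 fold change of Unc13b was -0.57 (standard error 0.278). It was -0.36 without TBI1 and -0.86 without TBI2, -0.11 with TBI1 and TBI3 both left out, and with Sham2 left out as well it turned to 0.063.

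**Figure D1:**
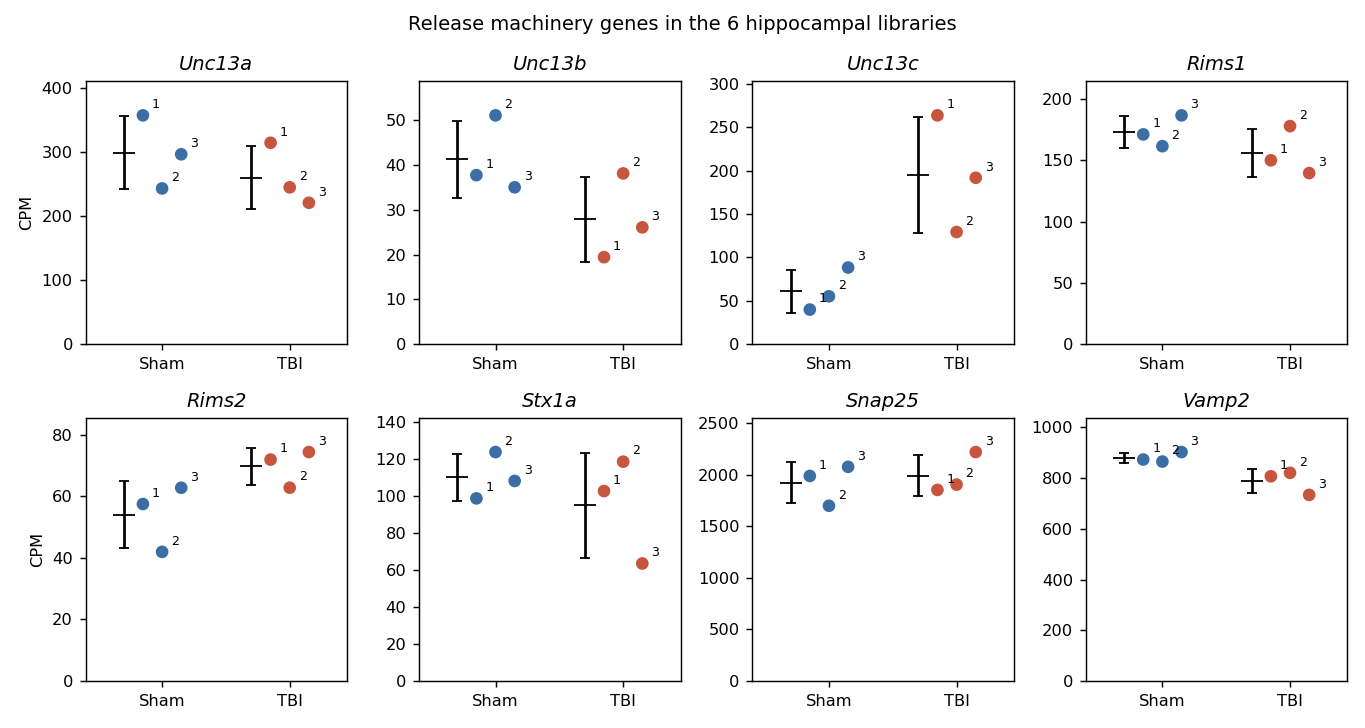
Level of each of the 8 genes (y axis, CPM, starting at 0) in the sham (blue) and TBI (red) libraries, with the replicate number beside each point and the group mean ± SD (n = 3) as a black bar. Unc13c lies between 39.9 and 88.4 CPM in sham and between 129 and 263.7 CPM in TBI, and the groups overlap in Unc13a, Unc13b, Rims1, Stx1a and Snap25.

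The make-up of the family was compared per length, as CPM per kilobase of annotated exon. Unc13a accounted for 82.0%, 69.3% and 66.9% of the summed level in Sham1 to Sham3, and Unc13c for 13.2%, 22.6% and 28.7%. In TBI1 to TBI3 the share of Unc13a was 44.6%, 54.2% and 43.2%, and that of Unc13c was 53.8%, 41.1% and 54.0%. Per exon union, Unc13c was the larger of the pair in TBI1 and TBI3 and Unc13a in TBI2 and in the sham libraries. Unc13b stayed between 1.53% and 8.09% in the 6 libraries. The mean share of Unc13c was 21.5% ± 7.81 in sham and 49.6% ± 7.37 in TBI (SD, n = 3 each), or 18.0% and 44.2% when the longest transcript of each gene was used as its length. On that scale Unc13a had the larger mean share in both groups, 74.6% in sham and 51.7% in TBI, so the order of Unc13a and Unc13c in TBI depends on the length used. The summed level of the family was 34.4, 27.8 and 35.0 CPM per kilobase in Sham1 to Sham3, and 55.7, 35.7 and 40.4 CPM per kilobase in TBI1 to TBI3, so TBI2 had nearly the same sum as Sham3.

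**Figure D2:**
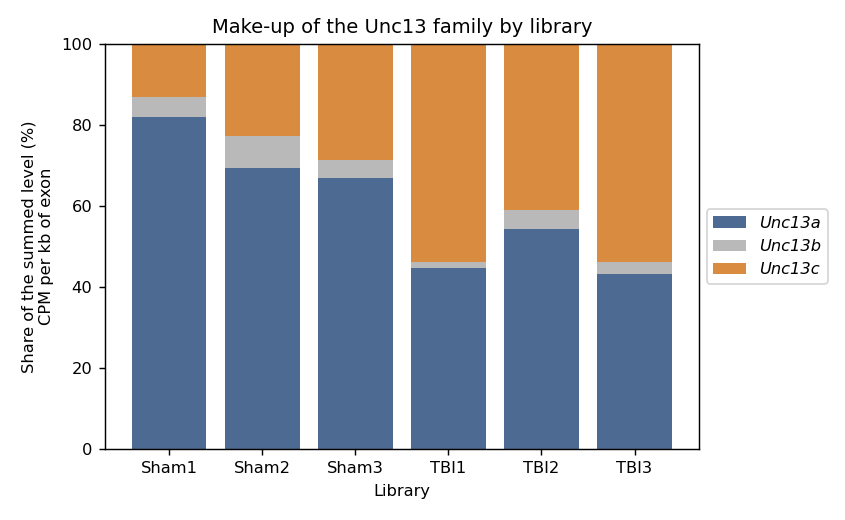
Share of each Unc13 paralogue in the summed level of the 3 genes (y axis, percent, from CPM per kilobase of exon) in each library (x axis), 1 stacked bar per mouse. Unc13c takes 13.2% to 28.7% of the bar in the sham libraries and 41.1% to 54.0% in the TBI libraries.

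The level of Unc13c was set beside the marker lists, since the gene is not particular to the hippocampus. In TBI1, which had the highest Unc13c, the 7 markers of cerebellar granule cells summed to 105 CPM, within the sham range. Of these 7 Gabra6, Cbln3 and Fat2, each under 1 CPM in every sham library, had 0, 0.318 and 0.098 CPM in TBI1, and Cbln1, Zic1 and Zic2 had 6.96, 23.6 and 9.11 CPM. Grm4, a glutamate receptor gene, had 65.1 CPM in TBI1, above the 15.1 to 37.3 CPM of sham. The same library carried 3808 CPM of striatal markers, led by Ppp1r1b, a phosphatase inhibitor of dopamine-responsive neurons, with 1788 CPM. TBI3 had 199.8 CPM of Gabra6, 534 CPM of Cbln3 and 149 CPM of Fat2, and all 7 granule cell markers were above every sham library, while its summed striatal markers were at 192 CPM. The thalamic markers summed to 353 CPM in Sham3, the sham library with the most Unc13c, to 137 CPM in Sham1 and 54.0 CPM in Sham2, and to 312 CPM in TBI2 and 451 CPM in TBI3. They summed to 42.5 CPM in TBI1, the lowest of all libraries. The inhibitory neuron markers were highest in TBI1 with 1706 CPM and in TBI3 with 1289 CPM, against 799 to 943 CPM in sham and 831 CPM in TBI2. Of the 6 inhibitory markers 3 were above every sham library in TBI1 (Gad1, Gad2 and Slc32a1) and 4 in TBI3, these and Pvalb, which had 471 CPM there against 38.5 to 77.5 CPM in sham. In TBI2 only Pvalb, with 97.97 CPM, was above every sham library. Sst in TBI2 and TBI3 (198 and 103 CPM against 232 to 285 CPM) and Vip in TBI1 and TBI3 (10.3 and 8.88 CPM against 14.8 to 21.5 CPM) were below every sham library. The part of these cells in the level of Unc13c was not tested.

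**Figure D3:**
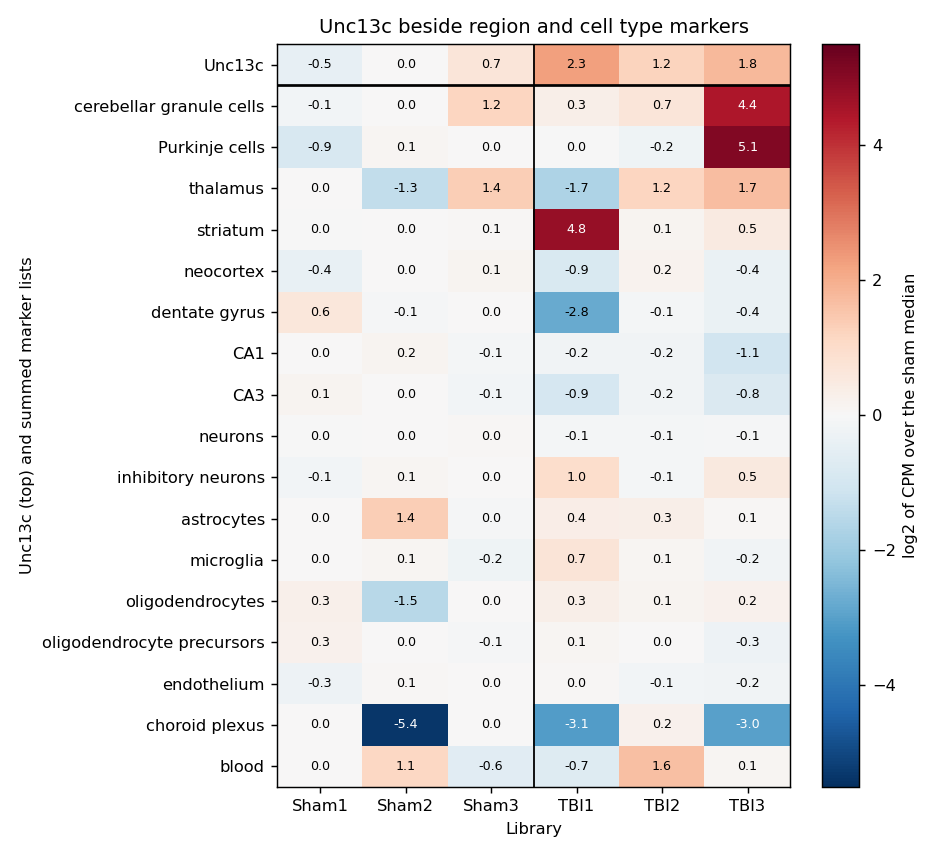
Unc13c (top) and 17 summed marker lists (below), as the log2 of CPM over the median of the sham libraries (color and number in each cell), by library (x axis). TBI1 stands out in striatum (3808 CPM) and TBI3 in the cerebellar lists (1810 and 1033 CPM), and Unc13c is above sham in all 3 TBI libraries.

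The genes whose profile over the 6 libraries lay nearest to that of Unc13c were found from log2 CPM centred on each gene's mean, by the root mean square difference. The 8 nearest among 18794 genes, in order, were P2ry1, Sema3f, Ankfn1, Kcnt1, Foxp2, Pbx3, Grb7 and Dpt, with differences from 0.203 to 0.334, where the median over all genes was 1.0006. P2ry1, a receptor for extracellular ADP, had 3.31, 4.21 and 5.86 CPM in Sham1 to Sham3 and 17.0, 7.02 and 11.97 CPM in TBI1 to TBI3. Kcnt1, a sodium-activated potassium channel, had 18.0, 22.8 and 24.5 CPM in sham and 96.1, 35.2 and 57.9 CPM in TBI. Foxp2, a transcription factor expressed in striatum, thalamus and Purkinje cells among other places, had 3.51, 3.44 and 10.9 CPM in sham and 20.5, 11.7 and 17.1 CPM in TBI. These genes shared with Unc13c the order of the TBI libraries, with TBI1 highest and TBI2 lowest. Ankfn1, Grb7 and Dpt were at most 5.84 CPM in any library, and in each of these 3 genes TBI3 was the highest library. The 8 genes were picked for this likeness, so their differences between the groups carry no test.

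**Figure D4:**
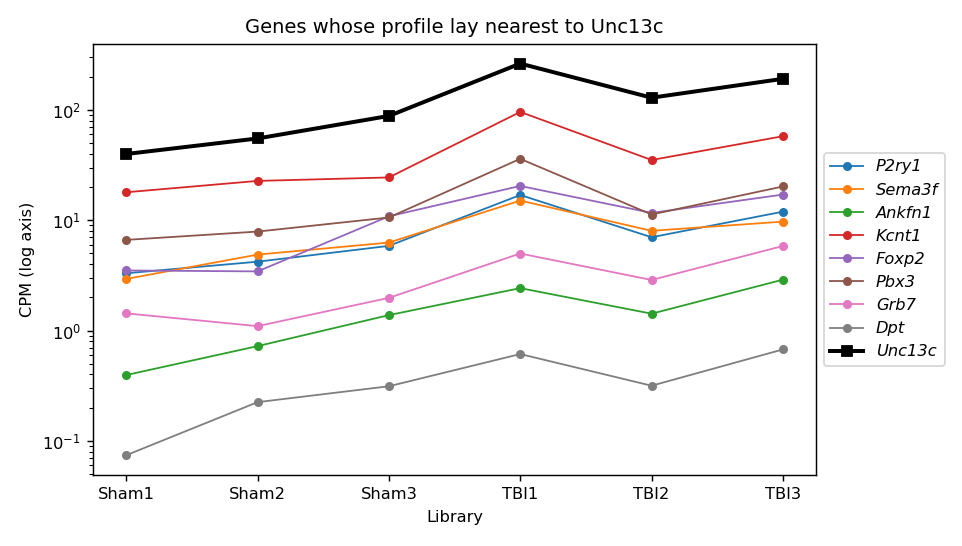
CPM (y axis, log scale) of Unc13c (black squares) and of the 8 genes with the nearest profile (colored circles) in the 6 libraries (x axis). Lines only join the values of a gene, and every gene shown has its lowest TBI library at TBI2, as Unc13c does at 129 CPM.

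The RIM genes differed in direction from each other, by less than Unc13c. Rims1 (ENSMUSG00000041670.16, chromosome 1, 22286251 to 22805994) had 171, 162 and 187 CPM in Sham1 to Sham3 and 150.0, 178 and 139.6 CPM in TBI1 to TBI3. The groups overlapped, and the log2 fold change was -0.15 (standard error 0.131). It was -0.078 without TBI3, -0.10 without Sham3, -0.26 without TBI2, 0.039 with TBI1 and TBI3 both left out and -0.013 with Sham2 left out as well. Rims2 (ENSMUSG00000037386.15, chromosome 15, 39198261 to 39684372) had 57.5, 41.9 and 62.8 CPM in sham and 71.9, 62.8 and 74.3 CPM in TBI. Its log2 fold change was 0.37 (standard error 0.175). It was 0.21 without Sham2, 0.22 without TBI1 and TBI3 and 0.058 without all 3 libraries. The lowest TBI library of Rims2 was 1.0002 times the highest sham library, and with RLE size factors or library totals in place of TMM the groups overlapped. Per kilobase, Rims2 made up 18.0% ± 2.13 of the pair in sham and 24.2% ± 3.82 in TBI (SD, n = 3 each), and in TBI2 its 20.0% was close to the 19.2% of Sham1 and Sham3.

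The SNARE genes were the most abundant members per exon length. Snap25 (ENSMUSG00000027273.13, chromosome 2, 136713453 to 136782428), a SNARE anchored in the presynaptic membrane by lipid groups, had 1989, 1700.0 and 2078 CPM in Sham1 to Sham3 and 1854, 1906 and 2221 CPM in TBI1 to TBI3. The ranges overlapped, with a log2 fold change of 0.052 (standard error 0.130) that was -0.029 without Sham2 and -0.032 without TBI3. It was 0.10 without Sham3 or TBI1, 0.083 without Sham1 and 0.084 without TBI2. With TBI1 and TBI3 both left out it was -0.013, and with Sham2 left out as well it was -0.098. Vamp2 (ENSMUSG00000020894.16, chromosome 11, 69088490 to 69092384), the SNARE of the vesicle membrane, had 873, 865 and 903 CPM in sham and 807, 821 and 734 CPM in TBI. The TBI libraries all lay below the sham libraries, which averaged 880.5 ± 19.7 CPM against 787 ± 46.8 CPM after TBI (SD, n = 3 in each group), and the log2 fold change was -0.16 (standard error 0.0993). It stayed between -0.19 and -0.10 under every alternative run for it. Stx1a (ENSMUSG00000007207.10, chromosome 5, 135023482 to 135051100), the syntaxin that Munc13 opens, had 98.8, 124 and 108 CPM in sham and 103, 119 and 63.6 CPM in TBI. Only TBI3 was below the sham range, the log2 fold change was -0.22 (standard error 0.237), and it was 0.0053 without TBI3, -0.12 without Sham2 and -0.41 without TBI2. With TBI1 and TBI3 both left out it was 0.11, and with Sham2 left out as well it was 0.19.

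The groups did not overlap in 3 of the 8 members, 2 higher in TBI (Unc13c and Rims2) and 1 lower (Vamp2). Among the 18795 genes kept by the filter 10.2% did not overlap, 4.77% higher and 5.45% lower in TBI. A gene counted as called when its unadjusted p was below 0.05, its adjusted p below 0.1 and its fold change above 1.5 in either direction. By edgeR's quasi-likelihood test 0 members and 0 of all 18795 genes (0%) were called, while 806 genes (4.29%) had an unadjusted p under 0.05. DESeq2 called 46 of 20786 genes (0.221%), and 1 member, Unc13c, the gene around which the set was drawn up. Nothing about the members is read from these counts, since the choice rested on this contrast.

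Per kilobase of exon the members spread over a wide range in sham. Snap25 was at 283 ± 29.1 and Vamp2 at 231 ± 5.18 CPM per kilobase, followed by Stx1a at 41.4 ± 4.75, Unc13a at 23.6 ± 4.51 and Rims1 at 23.5 ± 1.72 CPM per kilobase (SD, n = 3 each). The lowest were Unc13c at 6.95 ± 2.81, Rims2 at 5.20 ± 1.04 and Unc13b at 1.81 ± 0.378 CPM per kilobase. Unc13a and Rims1, and likewise Unc13c and Rims2, did not differ beyond the spread between libraries, while the other neighbours in this order had ranges that did not overlap. In TBI Unc13c, at 22.2 ± 7.65 CPM per kilobase, lay level with Rims1 at 21.2 ± 2.69 and Unc13a at 20.6 ± 3.84, and the order of the rest was that of sham. The TBI ranges of Stx1a and these 3 genes overlapped. With the longest transcript as length, Vamp2 (399 CPM per kilobase in sham) and Snap25 (394) changed places, and so did Rims2 (11.3) and Unc13c (6.95).

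The shares of SNARE paralogues were compared per kilobase as well. Vamp2 made up 90.9% to 94.2% of the summed level of Vamp1 and Vamp2 in sham, and 94.8%, 88.6% and 85.5% in TBI1 to TBI3. Vamp1, a synaptobrevin of hindbrain, spinal cord and fast-firing neurons, had 172, 142 and 242 CPM in Sham1 to Sham3 and 119, 283 and 332 CPM in TBI1 to TBI3. Sham3, TBI2 and TBI3, the libraries with the most Vamp1, also had the most thalamic markers, and the part of these in Vamp1 was not tested. Snap25 held 98.4% to 98.9% of the sum of Snap25 and Snap23 in all 6 libraries.

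A further 88 genes of the release machinery were listed by role, of which 87 were found in the files and 86 passed the filter and were tested. By edgeR's quasi-likelihood test 0 of the 86 were called, each adjusted p being at or above 0.982, and DESeq2 called 0. Of these genes 8 (9.30%, against 4.29% of all genes) had an unadjusted p below 0.05, 3 higher and 5 lower in TBI, where 2.16% of all genes were higher and 2.13% lower at that level. The split was 5 higher and 4 lower without Sham3, 4 and 10 without TBI2, and 0 and 1 without TBI3. Over all genes it was 431 and 417, 495 and 614, and 305 and 232 in these fits. The count of pathway genes ran from 1 without TBI3, where 537 of the 18795 genes passed that p, to 14 without TBI2, where 1109 did. It was 4 without Sham1 (467 of all genes), 0 with TBI1 and TBI3 both left out (311) and 4 without Sham2 as well (801). Of the 86 genes 33 had a positive and 53 a negative log2 fold change. Their median was -0.077, against 0.0091 over all genes tested. It was -0.049 without Sham3 and -0.11 without TBI3, against 0.0021 and 0.0013 over all genes. With TBI1 and TBI3 both left out it was -0.048, against -0.0091 over all genes. Of the 86 genes, 4 were higher in TBI without overlap and 9 were lower without overlap. Among all genes tested 4.77% did not overlap and were higher and 5.45% lower. The count of genes higher in TBI was near that background, and the count of genes lower in TBI was above it. Neither count was tested. By role, the median was -0.054 over 12 active zone scaffold genes, -0.0094 over 10 SNARE paralogues and -0.13 over 19 SNARE regulators, which chaperone, clamp or disassemble the SNARE complex. It was 0.30 over 10 calcium sensors, of which 6 were positive, -0.10 over 20 vesicle proteins, of which 14 were negative, and -0.19 over 13 genes of vesicle recycling, of which 10 were negative. The pair of other Munc13 relatives, Unc13d and Baiap3, was positive. The 8 general neuronal markers, a list that shares no gene with these, summed to 3505 to 3650 CPM in sham and 3272 to 3391 CPM in TBI, but only Map2 among them was lower without overlap (627 to 1015 CPM in sham, 433 to 555 CPM in TBI). Of the 8 markers 2 were above every sham library in TBI1 and 3 in TBI3.

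The 5 genes with lower values were 3 vesicle proteins and 2 SNARE regulators. Sv2b, a vesicle glycoprotein, had 536, 699 and 433 CPM in Sham1 to Sham3 and 275, 348 and 362 CPM in TBI1 to TBI3. The groups did not overlap, with a log2 fold change of -0.76 (standard error 0.204, unadjusted p 0.00821 and adjusted p 0.982 from edgeR's test), and with Sham2, TBI1 and TBI3 left out it was -0.48. Syn1 and Syn2, the synapsins that hold the reserve pool of vesicles, had log2 fold changes of -0.38 (standard error 0.123) and -0.45 (standard error 0.177). Without TBI1 and TBI3 the value of Syn2 was -0.13, and without Sham2 as well it was -0.18 for Syn1 and -0.086 for Syn2. Nsf, the ATPase that takes spent SNARE complexes apart, had 824, 843 and 789 CPM in sham and 536, 720 and 628 CPM in TBI, a log2 fold change of -0.38 (standard error 0.133) that was -0.18 without TBI1 and TBI3 and -0.17 without Sham2 as well. Stxbp5, the syntaxin-binding protein tomosyn, had -0.31 (standard error 0.129), and -0.17 with Sham2, TBI1 and TBI3 left out. The summed markers of 3 hippocampal fields were also lower in each TBI library than in any sham library. The CA1 markers summed to 504 to 597 CPM in sham and to 468, 467 and 255 CPM in TBI1 to TBI3, and the CA3 markers to 626 to 758 CPM and to 366, 593 and 397 CPM. The dentate gyrus markers summed to 152 to 248 CPM in sham and to 23.5, 147 and 122 CPM in TBI1 to TBI3. In each of these lists 1 of the 4 markers was lower without overlap by itself, and the CA1 marker Wfs1 had 276 CPM in TBI1, above the 91.8 to 175 CPM of sham. The part of these cells in the values of the 5 genes was not tested.

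The 3 genes with higher values were Unc13d, Syt2 and Dnm3. Unc13d, the Munc13 paralogue of blood cells and other secretory cells, was at 0.963, 1.07 and 0.729 CPM in Sham1 to Sham3 and at 1.37, 2.12 and 6.29 CPM in TBI1 to TBI3. Its log2 fold change of 1.82 (standard error 0.614, unadjusted p 0.0224 and adjusted p 0.982 from edgeR's test) was 0.92 without TBI3 and 1.20 without TBI1 and TBI3. Syt2, a fast calcium sensor of hindbrain and fast-firing synapses, had 30.4, 22.7 and 52.9 CPM in sham and 66.7, 63.0 and 135 CPM in TBI. Its log2 fold change was 1.32 (standard error 0.417) and was 0.88 without TBI3, 0.84 without TBI1 and TBI3, and 0.60 without Sham2 as well. Sham3 and TBI3, the highest libraries of their groups for Syt2, also led them in thalamic markers (353 and 451 CPM). The same held for cerebellar granule cell markers (188 and 1810 CPM). In TBI1, thalamic and granule cell markers summed to 42.5 and 105 CPM. The part of these cells in Syt2 was not tested. Dnm3, a dynamin of vesicle recycling and dendritic spines, overlapped between the groups, with a log2 fold change of 0.51 (standard error 0.195) that was 0.17 without TBI1 and TBI3 and 0.066 without Sham2 as well.

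The most abundant genes of 6 of the 7 lists per kilobase are given here, and none of the 6 reached an unadjusted p below 0.05. Cplx2, a complexin that clamps and assists fusion, was at 1728 ± 305 CPM in sham and 1582 ± 377 CPM in TBI. Syp, the vesicle marker synaptophysin, was at 1406 ± 55.4 and 1199 ± 185 CPM, and Syt1, the calcium sensor of fast release in the forebrain, at 1108 ± 81.3 and 904 ± 158 CPM (SD, n = 3 each). The log2 fold changes were -0.13 for Cplx2, -0.23 for Syp, -0.29 for Syt1 and -0.19 for the dynamin gene Dnm1, and the groups overlapped in each. Without TBI1 and TBI3 they were -0.29 for Cplx2, -0.030 for Syp, -0.034 for Syt1 and -0.027 for Dnm1. Without Sham2 as well they were -0.35, -0.053, -0.098 and -0.0016. With 1 library left out, Cplx2 ran from -0.34 (without TBI1) to 0.035 (without Sham1), Syp from -0.34 (without TBI2) to -0.12 (without TBI1), Syt1 from -0.44 (without TBI2) to -0.20 (without TBI3) and Dnm1 from -0.28 (without TBI2) to -0.080 (without TBI1). The other leading genes were the liprin gene Ppfia3 with -0.052 (-0.081 without TBI1 and TBI3, and -0.20 without Sham2 as well) and Baiap3, a Munc13-related gene, with 0.92. Ppfia3 was -0.21 without TBI1, -0.17 without Sham2, 0.051 without Sham1 and 0.081 without TBI3. Baiap3 had 7.53, 5.93 and 20.7 CPM in sham and 22.8, 15.1 and 26.9 CPM in TBI, and its value was 1.67 without Sham3, 0.61 without Sham2, 0.41 without TBI1 and TBI3 and 0.10 without Sham2 as well.

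**Figure D5:**
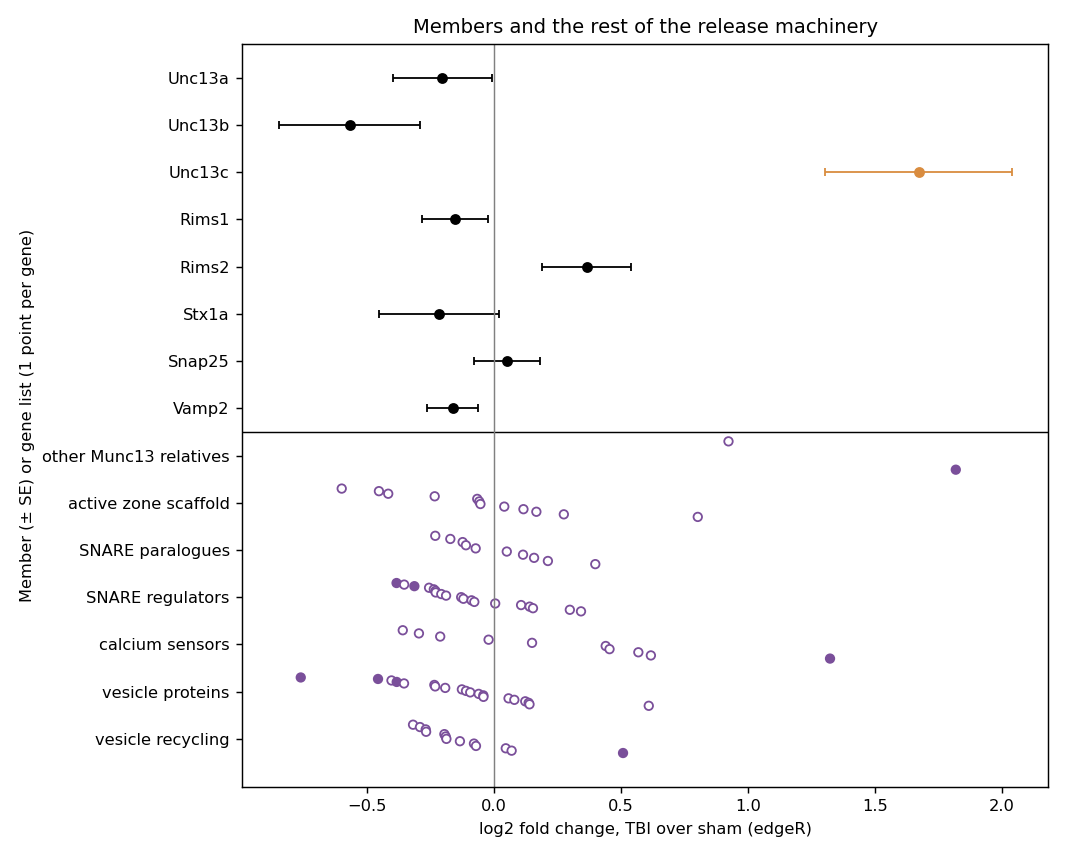
Log2 fold change of TBI over sham (x axis, edgeR) for the 8 members with the standard error (upper rows) and for the 86 tested genes of 7 further lists (lower rows, 1 point per gene, filled where the unadjusted p was under 0.05). Unc13c lies at 1.67 and the other members between -0.57 and 0.37.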

How the data were processed

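The 6 libraries, 1 per mouse, were grouped by the sample titles. The authors used FastQC for read quality, HISAT2 for alignment (GRCm38) and StringTie for quantification, and deposited estimated counts per gene, whole numbers without normalization. How coverage became counts, and the versions, annotation release and strandedness, are not given in the sources used here. Identifiers were matched to GENCODE vM21 without version, and 52403 of 52550 had a symbol. R 4.3.3 was used with edgeR 4.0.16 and DESeq2 1.42.0. Genes were filtered with filterByExpr, scaled by TMM, and compared by the quasi-likelihood test of edgeR, with p adjusted by Benjamini-Hochberg over 18795 genes. A standard error is the log2 fold change divided by the root of F. A prior count of 2 was used for log2 CPM. Levels per kilobase used the union of annotated exons. The fit was first tested on simulated counts of 18795 genes, of which 200 were changed 4-fold. It called 100% of these 200 and 21 unchanged genes. The simulation gave every gene the same dispersion, so it does not show how the fit performs with the wide spread between these libraries.

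The members and lists were chosen with earlier results of these data known. Named genes were the members, the most abundant gene per exon length of each pathway list and up to 3 genes with the smallest unadjusted p under 0.05, the 8 genes with a profile nearest to Unc13c, and leading or absent markers. Vamp1 and Snap23, outside this rule, were named after their values were seen. The leading gene of 1 list is not reported here. The alternatives were DESeq2, RLE size factors, library totals, 2 other filters, each library left out, a replicate block, other thresholds and the longest transcript. Leaving out TBI1 and TBI3, with or without Sham2, was added after the data were seen.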

Additional observations from a re-analysis of the deposited data

How the results depend on the processing

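The number of genes called across the whole table was 0 with edgeR, 46 with DESeq2's defaults, 0 to 1 with 1 library left out (1 without TBI1), 1 with TBI1 and TBI3 both removed and 11 with Sham2 removed as well. In the last 2 fits TBI2 is assumed to vary like the sham libraries. The log2 fold change of Unc13c ran from 1.39 to 2.03 with 1 library left out, and it moved to 1.08 with TBI1 and TBI3 removed and to 1.01 with Sham2 removed as well. Its share of the Unc13 family in TBI was 41.1% in TBI2 alone, and with 1 library left out it ran from 47.5% to 53.9%, while in sham it ran from 17.9% to 25.6%. With TBI1 and TBI3 removed, the sign changed for Rims1 (0.039), Stx1a (0.11) and Snap25 (-0.013). With Sham2 removed as well, it was changed for Unc13b (0.063), Stx1a (0.19) and Snap25 (-0.098), while Rims1 was negative again (-0.013). Stx1a also changed sign without TBI3 (0.0053), and Snap25 without Sham2 (-0.029) or TBI3 (-0.032). The cause was not tested.

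The replicate numbers are shared between the groups, and the labels do not say what they stand for. Deviations from the group means correlated at -0.10, -0.065 and 0.15 across genes for libraries with the same number. Those of libraries with different numbers correlated at -0.18 to 0.21. So few libraries cannot show whether those with the same number shared a day or batch. With the replicate as a block, 0 genes were called, 10 of the pathway genes had an unadjusted p under 0.05 against 8 without the block (723 against 806 of all genes), and the log2 fold change of Unc13c was 1.68. The lowest count of any member in a library was 793, for Unc13b in TBI1.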
